A study of Mus musculus with 77 samples.

Results

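Indirect pathway spiny projection neurons (iSPN) of dopamine-depleted mice on a low levodopa regimen were compared with iSPN of unlesioned mice, on 18 of the 77 arrays of the series. These were the 8 iSPN arrays labelled 6-OHDA lesion with chronic low levodopa and the 10 labelled mock lesion with chronic saline. The arrays were chosen by these labels, not by any measured value. The comparison asks which changes that follow a dopamine lesion were still present under the low regimen. For it, 7 iSPN arrays of lesioned mice on saline, 8 iSPN arrays of lesioned mice on high levodopa, and 12 low-levodopa and 10 mock arrays of the direct pathway neurons (dSPN) served as reference.

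All mice were males of the C57BL/6J strain aged 9 to 14 weeks. The iSPN mice carried Drd2::EGFP-L10a (line CP101), a bacterial artificial chromosome transgene in which the Drd2 promoter drives a green-fluorescent ribosomal protein. The tag lets ribosome-bound messenger RNA be pulled down from the tagged cells, so each array holds the RNA of 1 mouse's dorsal striatum on the injected side. The Drd2 promoter is also active in striatal cholinergic interneurons, so the tag marks iSPN mainly and not purely. The dSPN mice were of a different line (CP73), labelled by Drd1a. The lesion was 6-OHDA (3.2 µg/µl) placed in the right medial forebrain bundle, and the mock lesion was ascorbate in saline alone. Only lesioned mice with turning and limb-use asymmetry were kept. Drug began 3 weeks after surgery. In the low regimen levodopa was injected daily at 1 mg/kg until day 3 and at 2 mg/kg from day 4 to day 9. The high regimen was 3 and then 6 mg/kg. Benserazide (12 mg/kg) went with both, and mice without levodopa were injected with saline. The mock mice thus differ from the low-dose mice in both lesion and drug. Each array is a separate mouse, so p-values measure the spread between mice. As the RNA of many cells is pooled, fewer tagged cells and less RNA per cell cannot be told apart.

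iSPN carry the dopamine D2 receptor, which signals through Gi and lowers cyclic AMP. They use GABA and enkephalin as transmitters and project to the external pallidum. Loss of dopamine removes this brake, and a classical sign in iSPN is a rise in enkephalin and in genes that cyclic AMP and calcium switch on. Levodopa is turned into dopamine in the brain and restores part of the signal at both D1 and D2 receptors.

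Values are log2 expression as deposited, and a change is a difference of group means on that scale, so that a change of 1 is 2-fold. A gene is called when its adjusted p in a limma fit over all 77 arrays is under 0.05, with Benjamini-Hochberg adjustment over the 13271 genes tested. Each gene is read by 1 probe set, and levels of different genes are not compared. iSPN identity was checked first. The mean of 11 iSPN marker genes was 8.83 to 9.29 on the low-dose iSPN arrays and 9.03 to 9.69 on the mock iSPN arrays, against 5.32 to 5.89 on the low-dose dSPN arrays. Drd2 itself was 11.90, 12.24 and 12.36 (lowest, median and highest) on the low-dose arrays and 12.09, 12.41 and 12.73 on the mock arrays, and was not called (change -0.20 ± 0.19, adjusted p = 0.58).

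One feature of the arrays touches every comparison with mock. Sample titles are numbered, and where the animal number climbs without a break those arrays are called a run here. The labels do not say whether a run was a day, a cohort or something else. All 8 low-dose arrays lie in run 7 and the mock arrays in runs 5 and 6 (9 and 1), so the groups share no run. They are linked through the lesion arrays on saline, of which 1, 2 and 4 lie in runs 5, 6 and 7. In a fit with run as a fixed block, only those 7 arrays tie run 7 to runs 5 and 6. The median standard error of that fit was 0.349 against 0.164 without the block. The consensus correlation of arrays within a run was -0.0211.

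Against mock, 1455 genes were called in low-dose iSPN, 11% of those tested: 781 were higher (5.89%) and 674 lower (5.08%), and 205 differed over 2-fold. A fit on the iSPN arrays alone, which takes the spread from iSPN only, called 730. The largest rises were those of Anxa3, Mapkapk3, Cartpt, Inhba, Gpr3 and Nts. The largest falls were in Wnt8b, a secreted Wnt ligand, and Gpx6, a glutathione peroxidase. With run as a fixed block, 82 genes were called, 63 higher and 19 lower, so that 76.8% of calls were higher in place of 53.7%. Of the 1455 genes, 1417 kept their direction and 69 were called under the block, and the median ratio of the blocked to the unblocked change was 1.03.

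The lesion alone gave 823 calls against the same mock arrays, 6.20% of genes (424 higher, 3.19%, and 399 lower, 3.01%). Under the low regimen 390 of these (47.4%) were called in the same direction, which is 26.8% of the low-dose calls. Of the rises 228 of 424 (53.8%) were called again, and of the falls 162 of 399 (40.6%). A further 428 lesion calls were not called under the low dose. Both comparisons use the same 10 mock arrays, so their calls and signs are not independent. The direct comparison of low dose with lesion on saline leaves the mock arrays out. It gave 555 calls, 4.18% of genes (320 higher, 2.41%, and 235 lower, 1.77%), and 107 of the 428 lesion calls were among them in the direction back towards mock. With run as a fixed block 36 lesion changes were called again of 106, and on the iSPN arrays alone 165 of 350.

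The gene with the largest lesion change kept it. Anxa3, a calcium-dependent phospholipid-binding protein, was 3.63, 4.16 and 5.19 (lowest, median, highest) on mock arrays. It was 7.35, 8.59 and 9.02 after the lesion and 4.85, 8.60 and 9.66 under the low dose. Only the lowest low-dose array lay within the mock range. The change was 4.03 ± 0.32 (SE) under the low dose (16.3-fold, adjusted p = 1.1e-15), 4.24 after the lesion, and 4.25 for the low dose with the run block (adjusted p = 0.000772). Low dose minus lesion was -0.21 (adjusted p = 0.825).

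Cartpt, which encodes the CART neuropeptide, was 3.66, 5.20 and 5.67 on mock, 7.49, 8.66 and 10.03 on lesion and 5.92, 7.86 and 9.01 on low-dose arrays. No low-dose array reached down to the mock range. The low-dose change was 2.77 ± 0.38 (adjusted p = 1.01e-07) and the lesion change 3.89, and their difference was not called (-1.12, adjusted p = 0.112). A separation of all low-dose from all mock arrays was found for 59 genes, 0.445% of those tested.

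Nptx2, a pentraxin released by active neurons that gathers AMPA receptors, was 4.69, 5.71 and 6.70 on mock and 8.14, 8.24 and 8.60 on lesion arrays. Under the low dose it was 6.63, 8.14 and 8.52, with 1 array inside the mock range. Its changes were 2.23 ± 0.25 under the low dose and 2.59 after the lesion. Nts, the neuropeptide neurotensin, changed by 2.43 and 2.60. Aard changed by 2.38 and 2.24. For Anxa3, Nptx2, Nts and Aard, the difference between low dose and lesion was not called (adjusted p from 0.558 to 0.911).

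**Figure D1:**
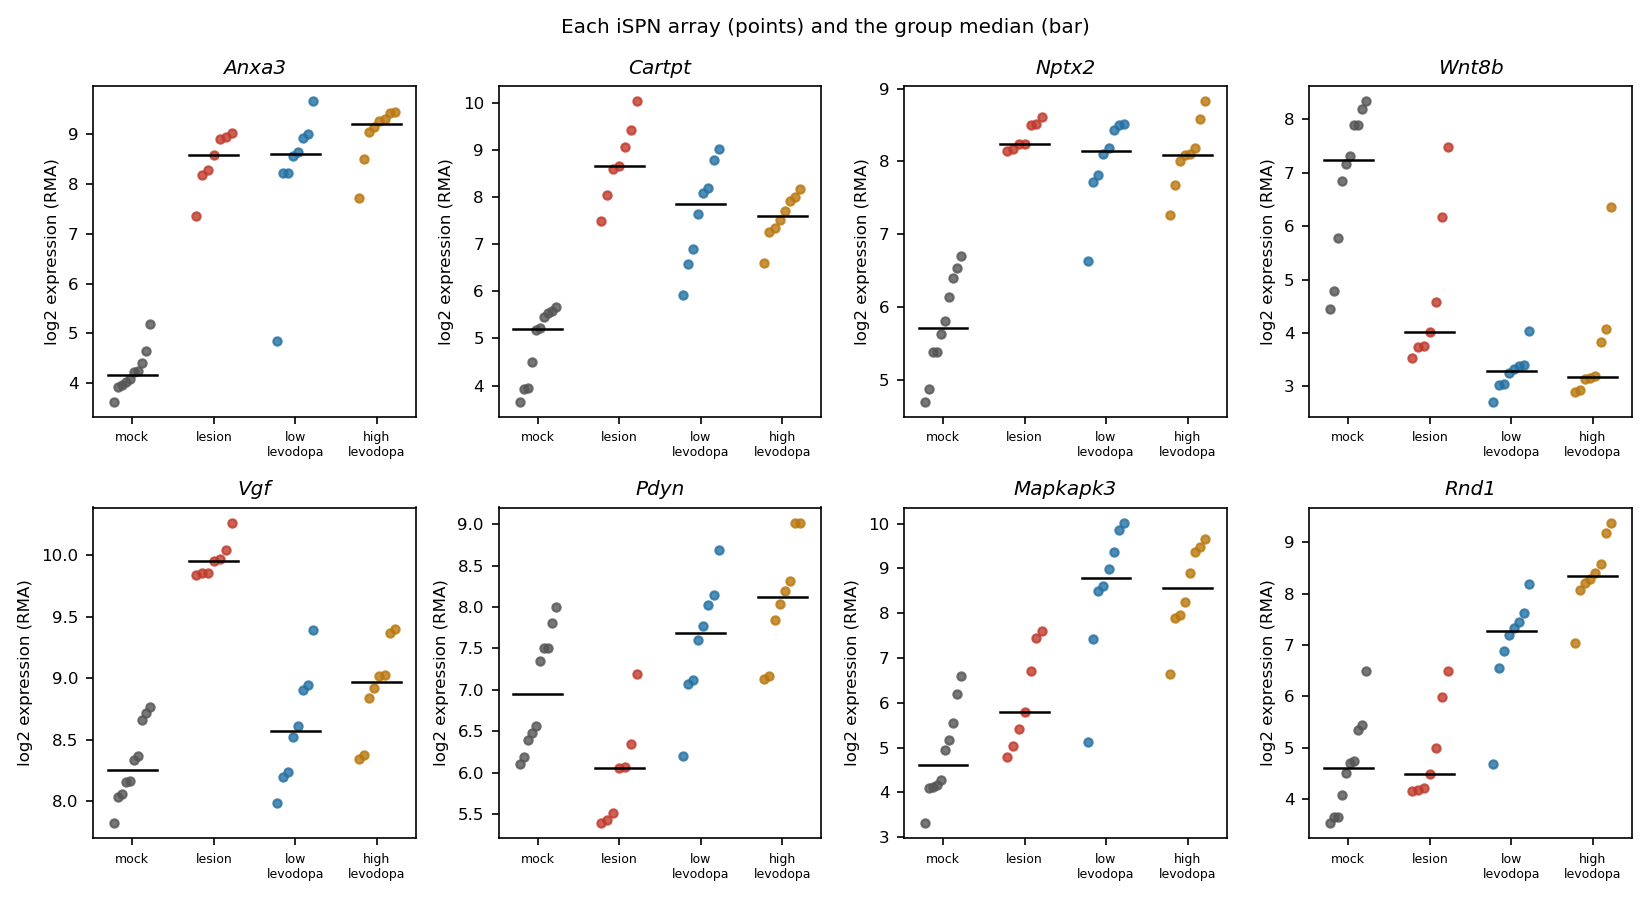
Log2 expression of 8 genes on every iSPN array, by group (mock lesion with saline, lesion with saline, lesion with low or high levodopa). Points are single mice and bars are medians. Anxa3, Cartpt and Nptx2 stay high and Wnt8b stays low under the low dose. Vgf lies nearer its mock than its lesion level, and Pdyn lies above mock without a call (change 0.59). Mapkapk3 and Rnd1 stand above both mock and lesion medians (Mapkapk3 8.79 against 4.62 and 5.81).

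The falls that were still called included Wnt ligands whose low-dose and mock arrays did not overlap. Wnt8b was 4.44, 7.23 and 8.34 on mock, 3.54, 4.02 and 7.49 on lesion and 2.71, 3.28 and 4.04 on low-dose arrays. Its change was -3.59 ± 0.45 under the low dose and -2.11 after the lesion, and it was -3.59 with the run block (adjusted p = 0.046). Wnt7a, a ligand known to act on synapses, was 7.27, 7.98 and 8.64 on mock and 6.10, 6.75 and 7.04 on low-dose arrays. That was a change of -1.29 ± 0.24, with -1.71 after the lesion. Wnt2 fell too, by 1.74 on the log2 scale. It was 6.01, 6.54 and 7.46 on mock and 4.25, 4.81 and 5.52 on low-dose arrays, also without overlap. With the run block its change was -0.62 (adjusted p = 0.74).

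Gpx6 was 5.91, 6.72 and 7.34 on mock and 2.56, 3.63 and 4.68 on low-dose arrays, with every low-dose array under every mock array. It changed by -3.18 ± 0.33 (9.06-fold lower) under the low dose, -2.60 after the lesion and -1.99 with the run block (adjusted p = 0.156). Kcng1, a modifying subunit of voltage-gated potassium channels, was 6.26, 6.94 and 8.24 on mock and 4.41, 5.29 and 6.15 on low-dose arrays, again without overlap. Its change was -1.81 ± 0.25, and -2.96 with the run block (adjusted p = 0.00131). A second, dimmer Kcng1 probe set changed by -0.40 and was not called by limma (adjusted p = 0.157). The other low-dose falls of the largest size were in Gpr37l1, Snorc, Gm36839, Ryr1 (an intracellular calcium release channel), Gm4926, Fxyd7, Pcdhb22 and Trim66, between -1.92 and -1.61. All but Trim66 were also called after the lesion. Gpr37l1 is best known from astrocytes, and the levels of the astrocyte marker list are given with the other cell type markers.

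The genes ranked highest and lowest by the lesion show the range of outcomes. Of the 20, 17 were called again under the low dose and 3 were not: A930033H14Rik (2.19 after the lesion, 0.67 ± 0.45 under the low dose), Erich6 (1.92 and 0.80 ± 0.55) and Fhit (-1.85 and -0.62 ± 0.30). These 20 were ranked by the lesion change, which shares its mock arrays with the low-dose change. Low dose and lesion differed for 4 of them: Fhit (1.23, adjusted p = 0.017), Nr4a1 (-1.55, adjusted p = 0.000493), C030013G03Rik (-1.63, adjusted p = 0.012) and Fam163b (0.74, adjusted p = 0.0443).

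**Figure D2:**
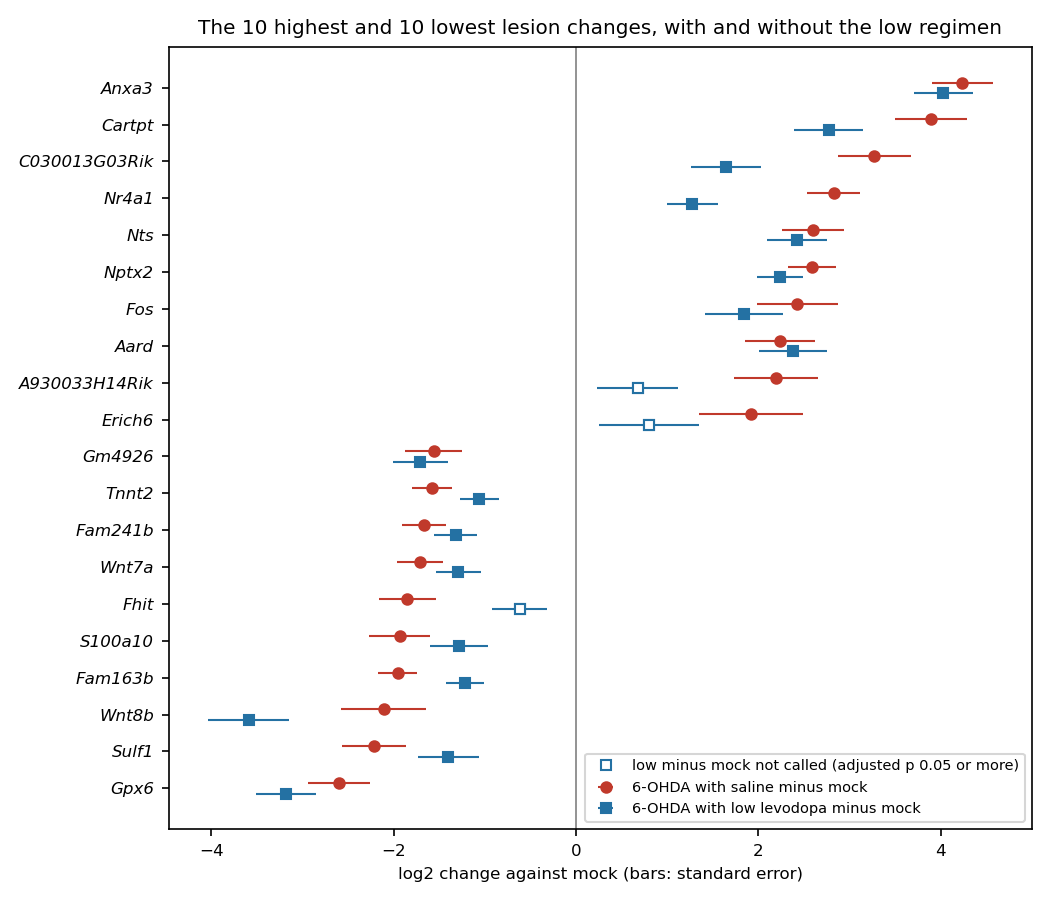
Log2 change against mock (x axis) of the 10 genes that rose most and the 10 that fell most after the lesion. Circles are lesion with saline, squares are lesion with low levodopa, bars are standard errors, and open squares were not called under the low dose. The squares of Anxa3, Nts, Nptx2, Aard and Gm4926 lie beside their circles (Anxa3 4.03 and 4.24), while those of Nr4a1 (1.28 and 2.83) and Fhit (-0.62 and -1.85) lie nearer to 0.

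Vgf, Scg2, Nr4a1 and Rgs2 rose after the lesion and were lower under the low dose than in lesioned mice on saline. They are named as single genes. Of 21 neuropeptides and granins 2 were higher and 3 lower than after the lesion. Of 33 immediate early genes 4 were higher and 2 lower. The shares over all genes were 2.41% higher and 1.77% lower. Vgf, a granin-family peptide precursor of active neurons, was 7.82, 8.25 and 8.77 on mock arrays and 9.84, 9.95 and 10.26 on lesion arrays. On low-dose arrays it was 7.99, 8.57 and 9.39, and all 8 lay below all 7 lesion arrays. Its lesion change was 1.65 (adjusted p = 2.38e-09), its low-dose change 0.29 ± 0.19 (adjusted p = 0.368), and low dose minus lesion was -1.36 (adjusted p = 7.24e-06). Scg2, another granin, stood between: 7.84, 8.25 and 8.67 on mock, 9.80, 10.26 and 10.58 on lesion and 8.74, 9.29 and 9.69 on low-dose arrays. The 3 groups did not overlap. Its low-dose change was 0.96 ± 0.14, its lesion change 1.90, and low dose minus lesion -0.94 (adjusted p = 1.92e-05). Nr4a1, an orphan nuclear receptor induced by activity and held down by D2 signalling, was 6.49, 7.13 and 9.25 on mock, 9.37, 10.07 and 10.71 on lesion and 6.97, 8.86 and 9.04 on low-dose arrays. No low-dose array reached the lesion range. Rgs2, a brake on G protein signalling, rose by 0.60 after the lesion, and its low-dose change was -0.05 (low dose minus lesion -0.65, adjusted p = 1.27e-06).

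Penk, the enkephalin precursor and the classical iSPN peptide, was 12.72, 12.94 and 13.02 on mock, 13.02, 13.14 and 13.21 on lesion and 12.72, 12.96 and 13.13 on low-dose arrays. It was called after the lesion (0.23, adjusted p = 0.033) and not under the low dose (0.04 ± 0.07, adjusted p = 0.798), while low dose and lesion did not differ at the threshold (-0.19, adjusted p = 0.132). Pdyn and Tac1, which encode dynorphin and substance P and mark dSPN, moved the other way. Pdyn was 6.11, 6.96 and 8.0 on mock, 5.39, 6.06 and 7.20 on lesion and 6.21, 7.69 and 8.69 on low-dose arrays; it fell by 0.99 after the lesion, and low dose minus lesion was 1.58 (adjusted p = 6.81e-05). Tac1 fell by 0.42 after the lesion, and low dose minus lesion was 0.60 (adjusted p = 0.000335). Neither was called against mock under the low dose (0.59 ± 0.25 and 0.18 ± 0.10). Of all 21 neuropeptide and granin genes tested 4 rose under the low dose (19%, against 5.89% of all genes), with a median change of 0.09. None fell by limma (2 lower at an unadjusted p under 0.05), while 5 rose and 2 fell after the lesion.

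Within run 7, where 8 low-dose and 4 lesion arrays stand side by side, low dose minus lesion was -1.40 for Vgf, -0.97 for Scg2, -1.55 for Nr4a1, 1.46 for Pdyn and 0.79 for Tac1. The sizes are close to those of the pooled fit, least so for Tac1. None of the 5 was called by limma in run 7 alone (adjusted p from 0.0937 to 0.293). The limma fit of all arrays with run as a fixed block must give the same sizes, because all low-dose iSPN arrays lie in run 7. It is thus no second estimate of them. It takes the spread from all groups, and it called all 5 (adjusted p from 0.000107 to 0.00807). That fit called 470 genes for low dose against lesion. Run 7 alone gave 4 calls, named after their values were seen. They were Amz1 (1.84), Carhsp1 (0.91), Pigx (1.52) and Tra2a (1.11), with 1360 genes at an unadjusted p under 0.05. Carhsp1, an RNA-binding protein, and Tra2a, a splicing factor, were also among the 5 genes called in opposite directions against mock, with -0.48 and -0.45 after the lesion and 0.32 and 0.61 under the low dose. The other 3 were Chordc1 and Hsd17b10, lower after the lesion and higher under the low dose, and Man1a, the reverse.

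A further 1060 genes were called under the low dose and not after the lesion, and 242 of them also differed from lesion on saline in the same direction. Mapkapk3, a kinase downstream of stress-activated MAP kinases, was 3.31, 4.62 and 6.60 on mock, 4.79, 5.81 and 7.60 on lesion and 5.14, 8.79 and 10.02 on low-dose arrays. It was 3.64 ± 0.48 above mock and 2.37 above lesion (adjusted p = 0.00305). Rnd1 was 3.53, 4.60 and 6.50 on mock, 4.15, 4.49 and 6.49 on lesion and 4.68, 7.27 and 8.20 on low-dose arrays, a change of 2.38 ± 0.37 against mock and 2.06 against lesion (adjusted p = 0.000491). In both genes the lowest low-dose value was that of array 71, and the other 7 low-dose arrays lay above every mock array. Nr4a2, a nuclear receptor of the Nr4a family, rose by 1.91 ± 0.29 over mock and 1.60 over lesion. Of its 6 probe sets 4 were called higher than mock (0.72 to 2.71), and the others changed by 0.07 and 0.13. Baz1a, a chromatin remodelling subunit, rose by 1.93 ± 0.34 over mock and 1.42 over lesion. Trim66 was lower than both, by 1.61 against mock (change -1.61 ± 0.35) and with a change of -1.30 against lesion. With run as a fixed block none of these 5 was called against mock by limma (0.54 to 2.81 in size, adjusted p from 0.0751 to 0.835).

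Immediate early genes, the first genes switched on by synaptic activity, rose in the largest share of any list. Of 33 members tested 17 rose (51.5%, against 5.89% of all genes) and 1 fell, with a median change of 0.75 against -0.0054 over all genes. After the lesion 12 rose, and 10 members were called the same way in both. Fos, a subunit of the AP-1 transcription factor, was 2.84, 4.85 and 6.88 on mock, 5.72, 7.59 and 7.94 on lesion and 4.93, 6.84 and 7.33 on low-dose arrays, so the groups overlapped. Its changes were 1.84 ± 0.43 under the low dose and 2.43 after the lesion. Fosl2 (1.81 and 1.82), Crem (1.36 and 1.41) and Ier3 (1.54 and 1.61) had nearly equal changes in both. Fosb, whose truncated product accumulates with repeated stimulation, rose more under the low dose: it was 6.01, 7.20 and 8.61 on mock, 7.41, 7.97 and 8.25 on lesion and 7.52, 9.07 and 9.71 on low-dose arrays. Its changes were 1.80 ± 0.23 and 0.80, which differed by 1.00 (adjusted p = 0.01).

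Arc, a regulator of AMPA receptor uptake, rose by 1.30 ± 0.20 under the low dose and 0.82 after the lesion. Sik1, a kinase that acts back on CREB cofactors, rose by 1.22 under the low dose, 0.84 above lesion (adjusted p = 0.00721). Junb was not called (0.11 ± 0.12). The member that fell was Egr1, by 0.27 on the log2 scale, and its call held in 7 of the 18 fits that left out 1 array each. Array 71 had the lowest Anxa3, Inhba, Rnd1 and Nptx2 values of the low-dose group, and without it 19 early genes were higher. Under the run block 4 were higher, with the median at 0.76.

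Of 27 genes of the later, slower plasticity response 13 (48.1%, against 5.89% of all genes) rose and 1 fell, with a median change of 0.42. Inhba, the activin subunit, was 7.77, 8.82 and 9.52 on mock, 9.26, 10.48 and 10.78 on lesion and 8.78, 11.72 and 12.06 on low-dose arrays. It was 2.57 ± 0.26 above mock and 1.02 above lesion (adjusted p = 0.0228). Gpr3, a receptor that raises cyclic AMP without a ligand, was 4.38, 5.69 and 6.99 on mock and 5.83, 8.66 and 9.60 on low-dose arrays, 2.55 ± 0.28 above mock and 1.17 above lesion (adjusted p = 0.0134). Nptx1 rose by 1.82, and Cdkn1a, a cell cycle inhibitor, by 1.54 with no call after the lesion (-0.45). Pim1, a kinase, was 4.93, 6.21 and 6.73 on mock and 6.97, 8.26 and 9.04 on low-dose arrays, without overlap. It was 2.16 ± 0.21 above mock and 2.11 with the run block (adjusted p = 0.019). Sstr2, a Gi-coupled somatostatin receptor, was 3.45, 4.68 and 5.33 on mock and 5.42, 6.76 and 7.77 on low-dose arrays, a change of 2.23 ± 0.29. Under the run block 6 late plasticity genes were higher.

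Cyclic AMP acts on genes through CREB, which binds the cyclic AMP response element (CRE). Because activity genes known as CREB targets rose together, the 250 bases before the start of each gene were searched for the full CRE, TGACGTCA, which reads the same on both strands. Of 10672 tested genes with a promoter in the RefSeq table (GRCm38.p6), 318 (2.98%) held it, as did 32 of 630 genes higher under the low dose (5.08%) and 5 of 518 lower ones (0.965%). After the lesion the share was 5.41% (18 of 333) among higher and 3.16% (10 of 316) among lower genes. The AP-1 motif TGACTCA was searched on both strands and does not overlap with the CRE by its letters. It was in 420 (3.94%) of all genes. Under the low dose it was in 26 (4.13%) of the higher and 23 (4.44%) of the lower genes. After the lesion it was in 18 of 333 higher genes (5.41%) and 18 of 316 lower ones (5.7%). The motifs were chosen after the values were seen, these shares were not tested, and a match is not a binding site. Of 104 named genes with a promoter 7 held the CRE (6.73%). Among them Tinf2 rose under the low dose (0.93), while Gpr6 (-0.16) and Pcsk1 (0.09) were not called. The stretches from 20 bases before the CRE to the base before the start are printed for the other 4. These are Cartpt, Sstr2, Scg2 and Th, which rose, and each holds a full match at a different distance. Capitals mark the CRE.
Cartpt: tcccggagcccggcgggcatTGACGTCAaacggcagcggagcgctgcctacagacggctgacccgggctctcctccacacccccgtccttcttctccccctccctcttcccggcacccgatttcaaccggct
Sstr2: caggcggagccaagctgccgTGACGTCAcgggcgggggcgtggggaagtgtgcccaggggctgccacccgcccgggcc
Scg2: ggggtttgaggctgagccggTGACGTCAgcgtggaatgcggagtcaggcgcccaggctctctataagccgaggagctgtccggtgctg
Th: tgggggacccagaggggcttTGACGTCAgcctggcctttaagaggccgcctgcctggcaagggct
The Cartpt stretch is chr13:99900684-99900815 on the minus strand, and its CRE ends 104 bases before the start. The Sstr2 stretch is chr11:113619249-113619326 on the plus strand, with the CRE 50 bases before the start. For Scg2 it is chr1:79440027-79440114 (minus strand, 60 bases) and for Th chr7:142899996-142900060 (minus strand, 37 bases). Low dose minus lesion was -1.12 for Cartpt, 0.85 for Sstr2, -0.94 for Scg2 and 0.46 for Th, and of these only that of Scg2 was called.

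Of 22 feedback regulators of MAP kinase signalling 2 were higher (9.09%, against 5.89% of all genes) and 5 lower (22.7%, against 5.08%). The lower ones were Spred1 (-0.77), Spred2 (-0.79), Spred3 (-1.07), Spry2 (-0.76) and Rasa1 (-0.35), all of which restrain Ras. Spred2 was 10.59, 10.90 and 11.13 on mock, 10.32, 10.65 and 10.69 on lesion and 9.35, 10.12 and 10.73 on low-dose arrays. It was lower under the low dose than after the lesion (-0.48, adjusted p = 0.0305), as was Spry2 (-0.75, adjusted p = 0.00016). The higher ones were the phosphatases Dusp5 (1.04) and Dusp14 (0.67), which also rose after the lesion. Without array 71, 4 members were higher and 5 lower, and on the iSPN arrays alone 1 and 3. Under the run block limma called none (3 higher and 4 lower at an unadjusted p under 0.05).

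Falls outnumbered rises among genes of adhesion, synapses and ion channels. Of 45 axon guidance and adhesion genes 17 fell (37.8%, against 5.08% of all genes) and 1 rose, with a median change of -0.37, while 7 fell and 3 rose after the lesion. Sema3a, a secreted guidance cue, was 7.50, 8.27 and 8.66 on mock and 4.78, 6.56 and 8.38 on low-dose arrays, with overlap, a change of -1.59 ± 0.27 and of -2.59 with the run block (adjusted p = 0.019). Ncam1 (-0.75), Cdh11 (-0.95) and Nlgn3 (-0.60), adhesion molecules of neurons, were also lower than after the lesion (-0.80, -0.69 and -0.55, adjusted p from 5.15e-05 to 0.0414). The member that rose was Epha5 (0.76).

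Of 39 glutamate receptors and scaffolds 9 fell (23.1%, against 5.08% of all genes) and 1, Homer1, rose (0.40), with a median change of -0.12. After the lesion none was called by limma, with 8 at an unadjusted p under 0.05. Grin2b, an NMDA receptor subunit, was 10.85, 11.11 and 11.42 on mock, 10.08, 10.69 and 11.08 on lesion and 9.40, 10.23 and 10.85 on low-dose arrays. The lowest mock array lay just above the highest low-dose array, and the change was -0.94 ± 0.17. Cacng3, an AMPA receptor partner, changed by -0.99 ± 0.13 against mock and -0.74 against lesion (adjusted p = 0.000419). The AMPA receptor subunits Gria1 (-0.48), Gria2 (-0.50) and Gria3 (-0.33) fell as well. Of 13 GABA receptor and inhibitory synapse genes 4 fell (30.8%), among them Gabrg3 (-1.14 ± 0.19). Other Gabrg3 probe sets changed by 0.07 and -0.81.

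Of 21 sodium and calcium channel genes 7 fell (33.3%, against 5.08% of all genes), with a median change of -0.15. Cacna1c, the pore of an L-type calcium channel, was 8.03, 8.65 and 9.85 on mock and 6.39, 7.52 and 7.77 on low-dose arrays without overlap. That was a change of -1.47 ± 0.22 (-1.04 after the lesion). A second Cacna1c probe set of similar level changed by -0.31 and was not called by limma (adjusted p = 0.078). Scn3b, a sodium channel subunit, changed by -1.33 ± 0.21. Of 41 potassium channel genes 7 fell (17.1%) and 1 rose, Kcns2 (0.96). Kcnip3, also known as the calcium sensor DREAM, was 9.69, 10.03 and 10.44 on mock, 8.62, 8.96 and 9.27 on lesion and 8.23, 8.92 and 9.64 on low-dose arrays. Its low-dose and mock arrays did not overlap, its changes were -1.20 ± 0.14 and -1.13, and it was -1.19 with the run block (adjusted p = 0.047). Under the run block 1 adhesion gene and 2 potassium channel genes were lower, and limma called no fall among glutamate (1 rise), GABA or sodium and calcium channel genes. At an unadjusted p under 0.05, 5, 1 and 5 of these were lower.

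**Figure D3:**
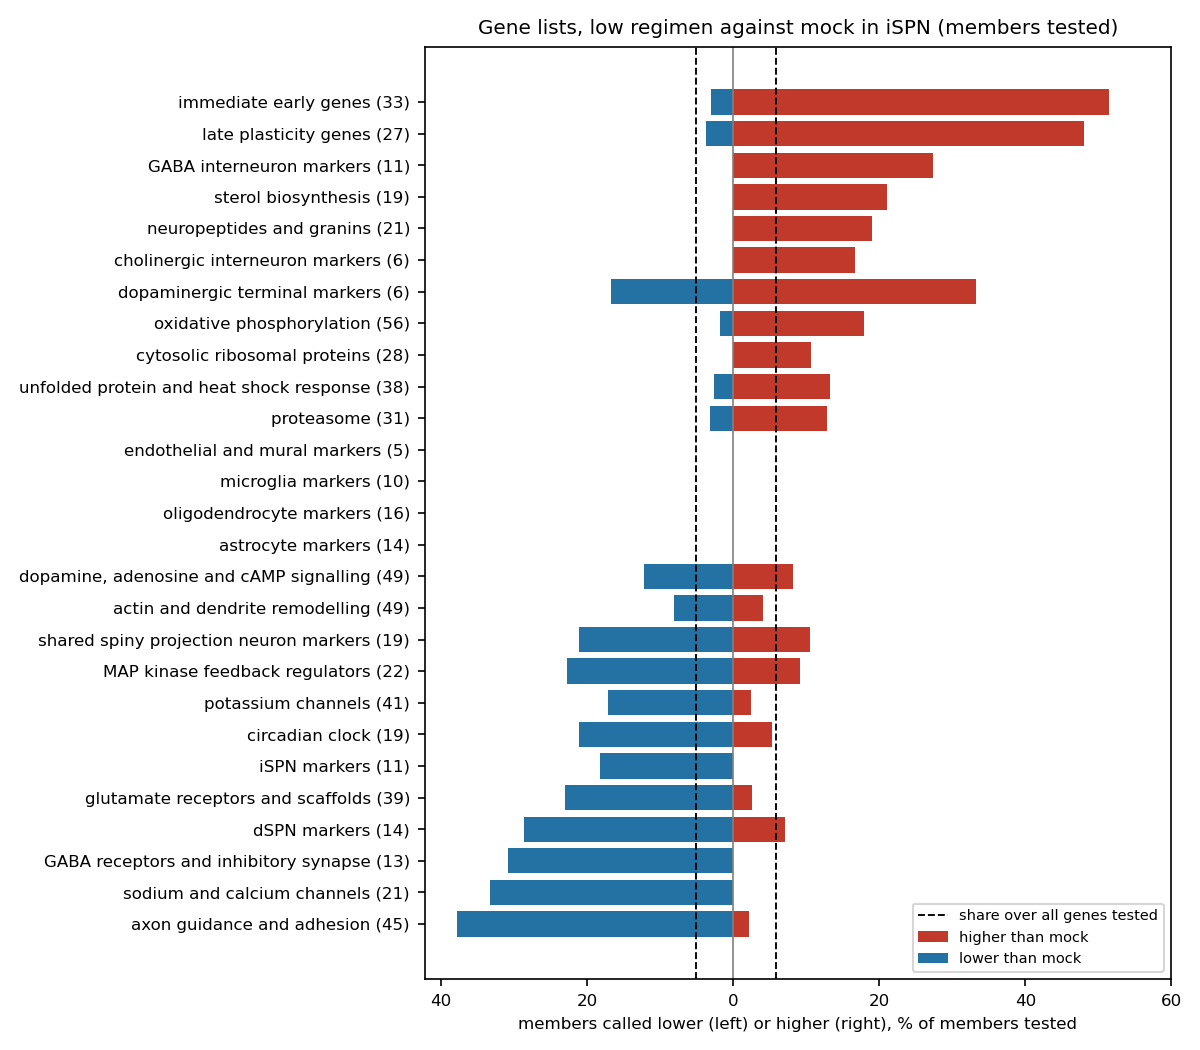
Share of the members tested (x axis, percent; members tested in brackets) of each gene list called higher (right) or lower (left) under the low dose than in mock, with the share over all genes as dashed lines (5.89% higher, 5.08% lower). Early and late activity genes stand out to the right at 51.5% and 48.1%, adhesion genes to the left at 37.8%, and glial lists have no bar.

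Several housekeeping lists held small rises. Of 56 oxidative phosphorylation genes 10 rose (17.9%, against 5.89% of all genes) and 1 fell, with a median change of 0.07. The largest called change was that of Atp5g1 (0.38 ± 0.09). Of 19 sterol biosynthesis genes 4 rose (21.1%), with Mvd, an enzyme of the mevalonate pathway, at 0.81 ± 0.16 and 0.74 above lesion (adjusted p = 0.00598). Of 38 genes of the unfolded protein and heat shock response 5 rose (13.2%) and 1 fell, led by the endoplasmic reticulum proteins Sdf2l1 (1.37 ± 0.27) and Manf (0.64 ± 0.18). Without array 71 these counts were 15, 4 and 8 higher. Of 31 proteasome genes 4 rose (12.9%) and 1 fell, and of 28 cytosolic ribosomal protein genes 3 rose (10.7%). None of these 5 lists kept a called member under the run block by limma, with 16, 2, 8, 7 and 4 higher at an unadjusted p under 0.05. On the iSPN arrays alone 1, 1, 1, 0 and 1 rose, the proteasome list having 6 higher at an unadjusted p under 0.05. Of 19 clock genes 4 fell (21.1%, against 5.08% of all genes) and 1 rose, with Ciart at -1.08 ± 0.20 (-0.99 after the lesion). Limma called no clock gene under the run block (1 higher and 2 lower at an unadjusted p under 0.05).

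Of 49 dopamine, adenosine and cyclic AMP signalling genes 4 rose (8.16%) and 6 fell (12.2%), against 5.89% and 5.08% of all genes. Of 49 actin and dendrite genes 2 rose (4.08%) and 4 fell (8.16%), not far from those shares (6 and 6 without array 71). The median changes of the 2 lists were -0.07 and 0.05. Rgs4, which shortens Gi and Gq signals, was 10.93, 11.24 and 11.57 on mock, 11.71, 11.92 and 11.99 on lesion and 11.16, 12.18 and 12.29 on low-dose arrays. It rose by 0.83 ± 0.09, and by 0.99 with the run block (adjusted p = 0.00859). Gad1, a GABA-synthesising enzyme, rose by 0.69 ± 0.11 under the low dose and 0.84 after the lesion, and Gad2 by 0.34 and 0.57, lower than after the lesion by 0.23 (low dose minus lesion -0.23, adjusted p = 0.042). Of 19 markers shared by both kinds of spiny projection neuron these 2 rose (10.5%) and 4 fell (21.1%). Of 11 iSPN markers Plxdc1 (-1.33) and Grik3 (-0.92) fell, 18.2% of the list. Gpr6, an iSPN receptor, was not called (-0.16 ± 0.24), and Adora2a and Chat were not among the genes tested. Under the run block 1 of the dopamine, adenosine and cyclic AMP genes was higher. In the actin, shared and iSPN marker lists limma then called none, with 8, 3 and 0 at an unadjusted p under 0.05.

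Markers of other cells moved with some of these results. Of 14 dSPN markers 4 fell (28.6%, against 5.08% of all genes), namely Slc35d3, Gpr149, Sfxn1 and Drd1, and 1, Nnat, rose. The mean of the 14 was 7.01 to 7.61 (median 7.25) on low-dose, 6.87 to 7.47 (median 7.18) on lesion and 7.28 to 7.74 (median 7.53) on mock arrays. Drd1, which fell by 0.47 on the log2 scale, was not called without low-dose array 78 (change -0.35, adjusted p = 0.101). The part of dSPN RNA in the results for Pdyn, Tac1 and other genes of both neurons was not tested. None of 14 astrocyte, 16 oligodendrocyte, 10 microglia and 5 endothelial or mural markers was called by limma, with 2, 1, 1 and 0 at an unadjusted p under 0.05. Their mean levels overlapped. Astrocyte means were 6.54 to 7.76 (median 7.09) on low-dose and 6.85 to 7.74 (median 7.33) on mock arrays. Oligodendrocyte means were 6.41 to 8.35 (median 7.12) and 6.83 to 8.20 (median 7.51). With both means as covariates 1459 genes were called.

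Among interneuron genes, 1 of 6 cholinergic markers rose (16.7%), Lhx8 (1.04 ± 0.29). The cholinergic mean was 5.63 to 6.25 (median 5.96) on low-dose and 5.27 to 6.06 (median 5.67) on mock arrays. Of 11 GABA interneuron markers 3 rose (27.3%, against 5.89% of all genes), Pvalb (1.26 ± 0.40), Th and Tac2 (0.92). Their means overlapped too, at 5.41 to 6.03 (median 5.88) on low-dose and 5.37 to 6.09 (median 5.49) on mock arrays. Pvalb was called in 13 of the 18 fits that left out 1 array each, and the 5 that lost it left out low-dose arrays 69, 70 and 71 and mock arrays 49 and 54. Th, the rate-limiting enzyme of dopamine synthesis, was 3.76, 4.76 and 5.84 on mock, 4.76, 5.75 and 6.78 on lesion and 5.72, 6.22 and 7.35 on low-dose arrays, a rise of 1.61 ± 0.29 under the low dose and 1.15 after the lesion. The dopaminergic terminal markers Slc6a3, En1, Pitx3 and Foxa2 were under the intensity limit for testing, and of the 6 tested Th and Nr4a2 rose and Dlk1 fell. Dlk1 was not called without low-dose array 69, 72 or 73. None of 4 cortical pyramidal markers was called by limma, with 0 at an unadjusted p under 0.05. Under the run block limma called no dSPN, cholinergic, GABA interneuron or dopaminergic marker, with 4, 0, 4 and 4 at an unadjusted p under 0.05. The part of these cells in the results was not tested.

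Whether the low-dose change differed between the neuron types was asked with the difference of the 2 low-dose changes, each against the mock arrays of its own line. It was called for 1394 genes (10.5%), with the dSPN change above the iSPN change in 624 (4.70%) and below it in 770 (5.80%). Of the 33 early genes 22 had the higher change in dSPN. Nr4a2 rose by 1.91 in iSPN and 4.33 in dSPN (difference 2.43 ± 0.40, adjusted p = 5.72e-06), and Fosb by 1.80 and 3.39 (difference 1.59, adjusted p = 0.000162). Bhlhe40, a clock repressor, fell in iSPN (-0.78) and rose in dSPN (1.56), a difference of 2.34. For Fos (2.06 in dSPN) and Nr4a1 (1.85 in dSPN) the difference was not called, at 0.21 and 0.57. The largest differences towards dSPN were in Pcsk1, a prohormone convertase (3.31), Tinf2 (3.05), Ptgs2, the cyclooxygenase of active neurons (2.93), Ubash3b (2.69) and Serpinb2 (2.66).

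Towards iSPN the order was Mir670hg (-4.07), Aard (-2.65), Parp3 (-2.37), Lamp2 (-2.30) and Ccdc113 (-2.24). Aard was 2.15, 2.62 and 4.48 on mock and 3.22, 5.43 and 6.54 on low-dose iSPN arrays, and its dSPN change was -0.27. Anxa3 rose in both lines, by 4.03 in iSPN and 2.63 in dSPN. Rgs4 rose in iSPN by 0.83, with a dSPN change of 0.06 (difference -0.76, adjusted p = 3.15e-06). Penk was 0.70 above mock in dSPN and 0.04 in iSPN (difference 0.67). In dSPN the low-dose and mock arrays share runs, in iSPN they do not, and with run as a fixed block 97 differences were called.

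**Figure D4:**
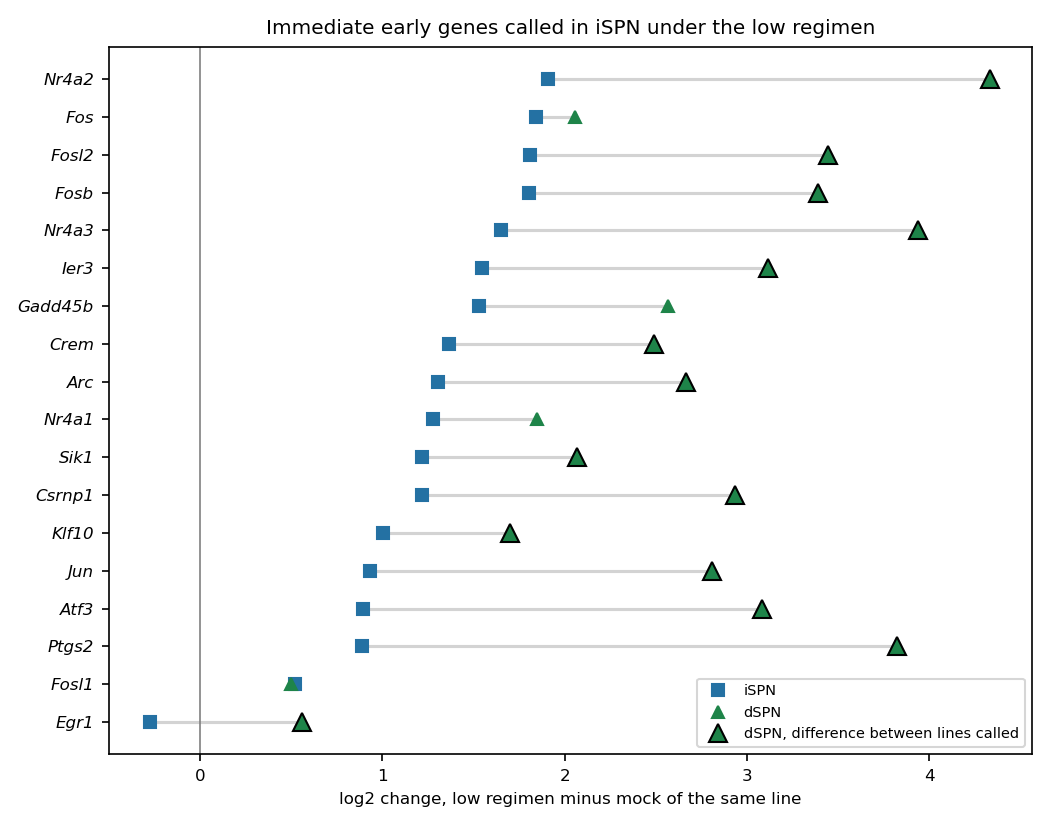
Log2 change under the low dose against the mock arrays of the same line (x axis) for the 18 early genes called in iSPN. Squares are iSPN, triangles dSPN, and large outlined triangles mark a called difference between lines. Fos, Nr4a1, Gadd45b and Fosl1 carry no outline, and Nr4a2 lies at 1.91 in iSPN and 4.33 in dSPN.

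The high regimen differed from the low one in 23 genes in iSPN (0.173%). Higher under the high dose were Wfdc18 (1.95), Ptgs2 (1.43), Rasl11b (0.83), Klf10, an early transcription factor (0.79), and Synpr, a synaptic vesicle protein (0.64). Lower were Slc31a2 (-1.39), Ubr3, a ubiquitin ligase (-0.89), Nkain4 (-0.88), Fbxo2 (-0.74) and 6820431F20Rik (-0.56). For the genes that led the low-dose comparison the high-minus-low change was not called, at 0.72 ± 0.34 for Anxa3, -0.08 ± 0.40 for Cartpt, 0.10 ± 0.27 for Nptx2 and 0.03 ± 0.51 for Mapkapk3. All high-dose iSPN arrays lie in run 6 and all low-dose ones in run 7, and with run as a fixed block no gene was called by limma, with 1016 at an unadjusted p under 0.05 in place of 1395.

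Across the genes named here, 115 were called under the low dose and 14 were called with run as a fixed block. These were Anxa3, Cartpt, Inhba, Aard, Nptx2, Pim1, Fosl2, Fosb and Rgs4, all higher, and Wnt8b, Kcng1, Wnt7a, Sema3a and Kcnip3, all lower. Their blocked changes ran from -3.59 to 4.25. For Fam241b (-1.32 without the block) and Uqcrb (-0.24) the sign turned with the block, to 0.09 and 0.04.

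**Figure D5:**
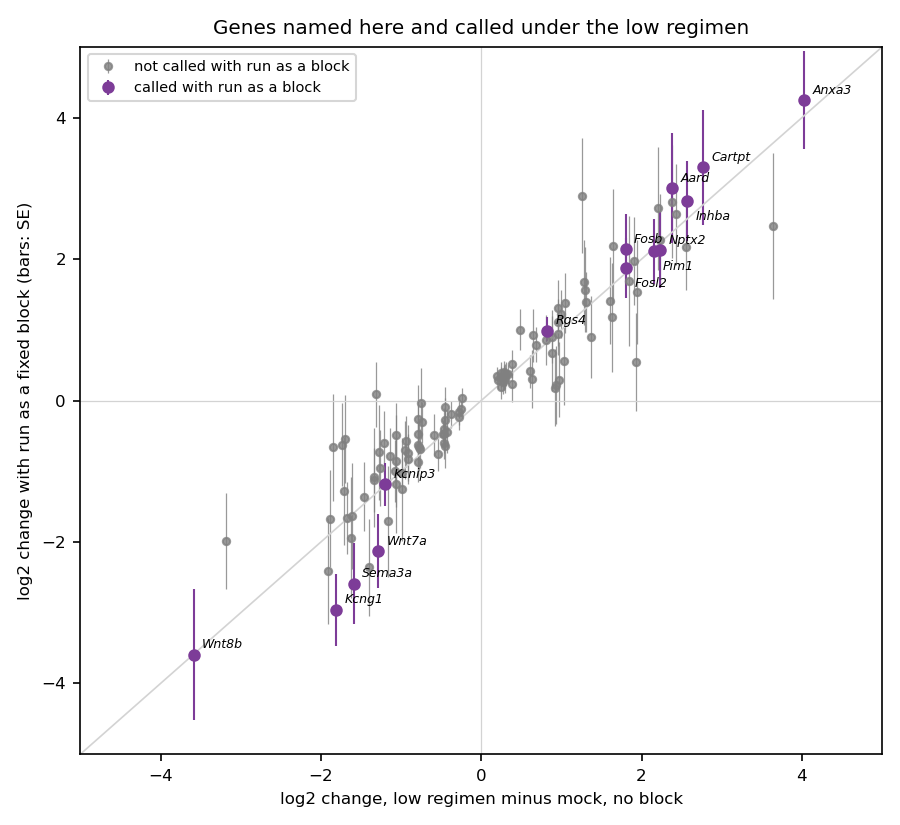
Low-dose change against mock without a run block (x axis) and with run as a fixed block (y axis, bars are standard errors) for the 115 named genes called under the low dose. Dark points with names are the 14 called with the block, from Wnt8b at -3.59 to Anxa3 at 4.25. Most points lie along the line of equal values.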

How the data were processed

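The authors deposited log2 values for 77 Affymetrix mouse arrays, made with RMA (affy) per the submitters' processing notes. Their versions are not stated. Scanner files were not used here. Of 45101 probe sets, 34958 carried 1 gene symbol in the platform annotation, and for each of 18194 genes the probe set of highest mean was kept. Genes over the 40th percentile of probe-set means (log2 3.553) were tested, 13271 in all, with lmFit and eBayes of limma 3.58.1 in R 4.3.3 over 8 groups (69 residual degrees of freedom), the Benjamini-Hochberg adjustment and a threshold of 0.05. The fit was tested on simulated data. Array medians lay between 4.31 and 4.42. Precision is set by how many arrays a group has.

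Named genes were the 12 highest and 12 lowest low-dose calls, the 10 highest and 10 lowest lesion calls, up to 4 called members of each of 28 lists, a panel of 18 genes, and the 5 highest and 5 lowest calls between lines and between doses. Members and lists were chosen with earlier results of these data known. Chosen after their values were seen were Cdkn1a, Crem, Dusp14, Epha5, Fosl1, Gadd45b, Gria1, Gria2, Gria3, Homer1, Ier3, Ncam1, Nlgn3, Nptx1, Rasa1, Rgs2, Sik1, Spry2 and the genes so marked in the text.

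The alternatives were the iSPN arrays alone, run as a fixed or random block, array weights, other filters, the mean of a gene's probe sets, quantile normalization, median centring, a trend and robust variance model, glial marker means as covariates, and leaving out each array. Run 7 alone and leaving out array 71 for the lists were added after the data were seen. Promoters are from the RefSeq table for GRCm38.p6.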

Additional observations from a re-analysis of the deposited data

Results flagged for a closer look

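Of 147 checks of 49 genes in 3 iSPN groups, 12 found a single array far from the others of its group, and chance gives about 1 in 20. Low-dose array 71 accounted for 5: it was the lowest of its group for Anxa3 at 4.8515 (next 8.2151), Inhba at 8.78 (next 10.9957), Rnd1 at 4.6752 (next 6.5574), Nptx2 at 6.6261 (next 7.7089) and C030013G03Rik at 3.6044 (next 6.2504). Lesion array 79 was the highest for Pim1 at 7.8545 and Nr4a2 at 6.3949 and the lowest for Tac1 at 8.4404. Single deviations were Nts on mock array 48 (5.9192), C030013G03Rik on lesion array 75 (6.1317), Nr4a1 on mock array 47 (9.2504, the highest) and Drd2 on low-dose array 73 (11.9002).

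The low-dose change differed between dSPN and iSPN, by the limma test of the difference, for 17 of these genes. The dSPN change was the higher one for Sstr2 (2.0522), Pim1 (0.8928), Gpx6 (1.7375), Gm36839 (1.3984), Sulf1 (1.5655), S100a10 (2.3705), Fhit (1.3605), Tnnt2 (1.7243), Penk (0.6655), Fosb (1.5872), Arc (1.3633), Egr1 (0.8325) and Nr4a2 (2.4281). It was the lower one for Anxa3 (-1.4018), Aard (-2.6479), C030013G03Rik (-1.5575) and Gpr6 (-0.9514).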

How the results depend on the processing

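With run as a fixed block the calls by limma were 82 for low dose against mock, 106 for lesion against mock, 36 for lesion changes called again, 97 between lines and 0 for high against low dose (1016 at an unadjusted p under 0.05). A fit on the iSPN arrays alone gave 730, 350, 153 for low dose against lesion, 165 called again, and 3 for high against low dose (Ptgs2, Synpr and Ubr3). Array weights gave 438 lesion calls and 238 called again. High against low dose gave 158 calls with run as a random block, 42 with the mean of a gene's probe sets and 7 with glial marker means as covariates. Run 7 alone gave 4 calls for low dose against lesion. The other settings kept each of these counts within 1.5 times. Leaving out 1 array at a time gave 1154 (without low-dose array 73) to 1752 (without low-dose array 71) calls for low dose against mock.

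Of 137 named genes 31 kept their direction and side of the threshold with run as a fixed block. Another 99 kept their direction and lost the call. Signs turned there for Fam241b (0.0872), Uqcrb (0.0369), Gpr6 (0.1734), Rasl11b (-0.0599), Synpr (0.0817), Slc31a2 (-0.6771) and Fbxo2 (0.0032), for Slc31a2 with the mean of probe sets (-0.0683) and for Pcsk1 with the covariates (-0.074). Leaving out 1 array gave Pcsk1 -0.1459 to 0.3545 and Rasl11b -0.0195 to 0.1689. The cause was not tested. No paired analysis was possible because the title numbers are unique to each array, so groups share none.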

Other observations

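Cytosolic ribosomal protein genes differed between lines in 1 direction: 15 of 28 had a higher low-dose change in dSPN than in iSPN and 0 a lower one, against 4.70% and 5.80% of all genes. In iSPN 3 of the 28 rose.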
